A study of Mus musculus with 9 samples.

Results

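The 7 genes described here were among those with the largest rise in the hindgut of Ednrb null mouse embryos. They are the long non-coding RNAs A330076H08Rik and A930005H10Rik, the enzymes Adat2, Fn3krp and Klk13, and the transporters Abcb1b and Slc25a31. These genes, 7 of 18193 measured, were selected on their difference between Ednrb null and wild type, so that difference is given as a description. All probe sets that the platform annotation assigns to 1 of these genes and to no other were used, which came to 12 of 45037.

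The Ednrb null group carried the lacZ allele of Ednrb on both chromosomes, given as Ednrb -/-. The Ednrb NCC null group was titled Ednrb-FLEX and labelled as mutant in NCC cells, an abbreviation that is not spelled out, and the driver of its recombination is not given in the sources used here. The third group was wild type, and each group had 3 arrays of terminal colon. The stage was embryonic day 14 by the sample labels and 14.5 by the series text. The labels do not say whether single embryos or pools were used for an array, and p-values here measure the spread between these samples, which may be technical.

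Ednrb encodes the type B endothelin receptor, through which endothelin-3 acts on enteric neural crest cells, the migrating precursors of the neurons and glia of the gut. Without this signal the crest does not fill the distal bowel, which is the basis of the aganglionic colon of Ednrb mutants and of some forms of Hirschsprung disease. The 7 raised genes are not known as a pathway. Adat2 is the catalytic subunit of the enzyme that deaminates adenosine to inosine at the wobble position of transfer RNAs, and works with Adat3. Fn3krp phosphorylates ketosamines, sugar adducts on proteins that are lost once phosphorylated, and is the close relative of Fn3k. Klk13 is a secreted serine protease of the kallikrein family. Abcb1b is one of the mouse P-glycoproteins, efflux pumps for drugs and other lipophilic compounds, together with Abcb1a. Slc25a31, also called Ant4, is the ADP/ATP carrier of the inner mitochondrial membrane that male germ cells use during meiosis.

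The promoter windows of 4 of the genes are printed because these genes make up the 2 extremes of the comparison between the mutants described below. Fn3krp and Slc25a31 had nearly the same mean in both mutants, while Adat2 and Abcb1b were more than 1 log2 unit higher in Ednrb null than in Ednrb NCC null. Each window is RefSeq sequence of build GRCm38.p6, from 250 bases before to 50 bases after the annotated start. The windows are chr11:121421123-121421422 (+ strand) for Fn3krp, chr3:40708621-40708920 (+ strand) for Slc25a31, chr10:13552657-13552956 (+ strand) for Adat2 and chr5:8797897-8798196 (+ strand) for Abcb1b. Capitals mark matches on either strand to 4 promoter motifs. These are the TATA box, searched as the letters TATAAA, the box searched as CCAAT, the GC box, searched as GGGCGG, and the E-box, searched as CACGTG.
Fn3krp: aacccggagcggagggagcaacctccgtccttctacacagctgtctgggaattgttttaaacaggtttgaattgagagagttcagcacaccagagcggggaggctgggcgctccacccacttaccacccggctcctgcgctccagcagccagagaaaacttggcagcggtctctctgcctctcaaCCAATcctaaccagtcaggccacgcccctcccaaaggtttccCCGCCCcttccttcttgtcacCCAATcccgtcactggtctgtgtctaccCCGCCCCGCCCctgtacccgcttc
Slc25a31: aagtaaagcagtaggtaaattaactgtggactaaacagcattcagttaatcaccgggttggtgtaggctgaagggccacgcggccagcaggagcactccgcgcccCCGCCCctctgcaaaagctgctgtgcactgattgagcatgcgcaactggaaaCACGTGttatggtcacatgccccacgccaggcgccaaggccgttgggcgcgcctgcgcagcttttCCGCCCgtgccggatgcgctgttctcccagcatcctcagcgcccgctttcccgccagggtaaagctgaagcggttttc
Adat2: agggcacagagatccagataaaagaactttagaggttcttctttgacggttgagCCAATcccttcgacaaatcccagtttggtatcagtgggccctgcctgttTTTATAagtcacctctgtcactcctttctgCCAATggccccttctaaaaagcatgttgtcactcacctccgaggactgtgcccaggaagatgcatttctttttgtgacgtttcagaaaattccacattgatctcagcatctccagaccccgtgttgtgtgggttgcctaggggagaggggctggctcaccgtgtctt
Abcb1b: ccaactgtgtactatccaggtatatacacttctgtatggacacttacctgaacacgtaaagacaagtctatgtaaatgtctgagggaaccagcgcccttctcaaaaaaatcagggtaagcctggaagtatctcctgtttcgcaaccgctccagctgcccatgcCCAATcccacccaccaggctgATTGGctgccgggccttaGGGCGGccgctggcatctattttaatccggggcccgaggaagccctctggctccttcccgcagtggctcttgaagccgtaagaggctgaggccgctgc
Positions count from the start as 0 to the first printed base of the match. Fn3krp held the CCAAT letters at -65 and -2 and the GC box letters at -23, 26 and 31, the last pair of which overlap. Slc25a31 held no CCAAT or TATAAA, 2 GC box matches at -145 and -28, and 1 E-box match at -93. Adat2 held the only TATAAA match among the 7 genes, at -147, with CCAAT at -196 and -117. Abcb1b held CCAAT at -87 and -66 and a GC box match at -48. All 7 genes had an entry, A930005H10Rik with 3 start sites. CCAAT stood in 4 of the 7 genes, against 37.4% of 32851 promoter windows of the same length, GGGCGG in 3 against 35.7%, TATAAA in 1 against 13.6% and CACGTG in 1 against 7.15%. The number of CpG dinucleotides was 22 in Slc25a31, 17, 19 and 17 at the 3 start sites of A930005H10Rik, 14 in Fn3krp, 12 in Abcb1b, 6 in Adat2, 2 in Klk13 and 0 in A330076H08Rik, with a median of 7 over all windows. None of the 4 motifs stood in all 7 genes, and the windows of Klk13 and A930005H10Rik held none of them.

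Values are log2 intensities of Affymetrix probe sets, sets of short probes for a transcript, and a difference of 1 is a 2-fold difference. A call is a limma adjusted p under 0.05, with Benjamini-Hochberg adjustment over all 45037 probe sets. Median intensity per array lay between 112 and 116 on the linear scale, and over probe sets arrays of the same group had r between 0.9932 and 0.9967, against 0.9881 to 0.9928 for arrays of different groups. The brightest of 3 Ednrb probe sets averaged 9.13 ± 0.33 in Ednrb null, 11.17 ± 0.14 in Ednrb NCC null, against 11.02 ± 0.07 in wild type (SD, n = 3 each). It was called lower in Ednrb null (difference -1.89, limma adjusted p = 2.88e-05) and not called in Ednrb NCC null (0.15, adjusted p = 0.696). Whether its probes lie in the altered stretch of the gene is not known here. Of the epithelial and mesenchymal markers of the hindgut, 0 of 11 and 0 of 11 lay in the lowest 25% of intensities on all arrays. In bulk tissue, fewer cells of a type and less RNA per cell cannot be told apart.

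The largest rise of all 18193 genes in Ednrb null belonged to A330076H08Rik, a non-coding transcript of chromosome 7. Its brightest probe set, 1457557_at, had log2 intensities of 7.89, 7.80 and 8.10 in Ednrb null, beside 7.19, 7.25 and 7.11 in Ednrb NCC null, against 5.65, 5.88 and 5.62 in wild type. The 3 groups formed 3 separate levels without overlap. Between means, Ednrb null stood 2.21 (SE 0.11) above wild type, a 4.64-fold difference. Its mean stood at the percentile 63.6 of all probe sets in Ednrb null, 54.6 in Ednrb NCC null, against 33.4 in wild type. The dimmer probe set 1456402_at, near the bottom of the array in every group, read 4.39, 4.62 and 4.10 in Ednrb null, beside 4.10, 4.49 and 3.91 in Ednrb NCC null, against 3.93, 4.04 and 3.44 in wild type. Its Ednrb null arrays also lay above all wild type arrays, at a mean difference of 0.57 (SE 0.19).

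A930005H10Rik, the other non-coding transcript, lies on chromosome 3 and has 4 probe sets. Its brightest, 1441263_a_at, read 9.53, 9.70 and 9.63 in Ednrb null, beside 9.56, 9.41 and 9.51 in Ednrb NCC null, against 8.02, 8.22 and 8.19 in wild type. The mutants overlapped each other and all 6 arrays were more than 1 log2 unit above the highest wild type array. The difference was 1.47 (SE 0.09) for Ednrb null and 1.35 (SE 0.09) for Ednrb NCC null.

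Klk13, on chromosome 7, was the second of the 7 by size. Probe set 1456539_at read 9.08, 8.62 and 8.94 in Ednrb null, beside 8.44, 8.05 and 8.30 in Ednrb NCC null, against 6.84, 7.33 and 6.82 in wild type. As for A330076H08Rik, the arrays fell into 3 steps with wild type lowest and no overlap, though wild type 1C stood above the other wild type arrays. The difference between Ednrb null and wild type was 1.88 (SE 0.17), or 3.68-fold.

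Adat2, on chromosome 10, was the third of the 7 by size. Probe set 1419130_at read 9.85, 10.10 and 10.07 in Ednrb null, beside 8.87, 9.00 and 8.86 in Ednrb NCC null, against 8.21, 8.31 and 8.53 in wild type. The Ednrb NCC null arrays lay nearer to wild type than to Ednrb null. The difference between Ednrb null and wild type was 1.65 (SE 0.11), or 3.15-fold.

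Fn3krp, on chromosome 11, read 7.13, 7.08 and 6.88 in Ednrb null, beside 7.31, 6.69 and 6.95 in Ednrb NCC null, against 5.45, 5.33 and 5.50 in wild type with probe set 1443050_at. The Ednrb null range lay inside that of Ednrb NCC null, and all 6 mutant arrays were more than 1 log2 unit above the highest wild type array. The difference between Ednrb null and wild type was 1.61 (SE 0.14), or 3.04-fold.

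Abcb1b, on chromosome 5, was the only gene of the 7 whose Ednrb NCC null arrays overlapped wild type in its brightest probe set. Probe set 1418872_at read 6.50, 6.35 and 6.29 in Ednrb null, beside 5.35, 5.15 and 5.22 in Ednrb NCC null, against 4.68, 5.43 and 4.93 in wild type. Wild type 1C was above every Ednrb NCC null array. The difference between Ednrb null and wild type was 1.37 (SE 0.16), or 2.58-fold. The second probe set, 1446701_at, read 4.40, 4.11 and 4.07 in Ednrb null, beside 4.04, 4.09 and 4.09 in Ednrb NCC null, against 4.09, 4.09 and 4.08 in wild type, so that only the array Ednrb null 29 stood clear of the rest.

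Slc25a31, on chromosome 3, was the most uneven of the 7 within the mutants. Probe set 1453133_at read 5.26, 5.71 and 4.90 in Ednrb null, beside 4.89, 5.61 and 5.25 in Ednrb NCC null, against 3.93, 3.99 and 3.93 in wild type. The wild type arrays lay close together, at the percentile 9.38 of all probe sets, while the mutant arrays spread widely and overlapped each other (SD 0.40 in Ednrb null, 0.36 in Ednrb NCC null, against 0.04 in wild type). The difference between Ednrb null and wild type was 1.34 (SE 0.20), or 2.53-fold. Slc25a31 is best known from germ cells, and 8 of 11 measured germ cell markers, including Dazl, Ddx4, Pou5f1, Mael and Sycp3, lay in the lowest 25% of intensities on all 9 arrays. The summed linear intensity of that list was 352 to 375 in Ednrb null. It was 341 to 372 in Ednrb NCC null, against 309 to 350 in wild type. In limma 0 of the 11 were called in either mutant against wild type, with 0 at an unadjusted p under 0.05. Over all genes the called share was 4.79% for Ednrb null, beside 3.90% for Ednrb NCC null. At an unadjusted p under 0.05 the shares were 18.5% and 18.8%, in the same order. Beside such shares, a count of 0 among 11 mostly dim genes carries little weight. The part of germ cells in the values of Slc25a31 was not tested.

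**Figure D1:**
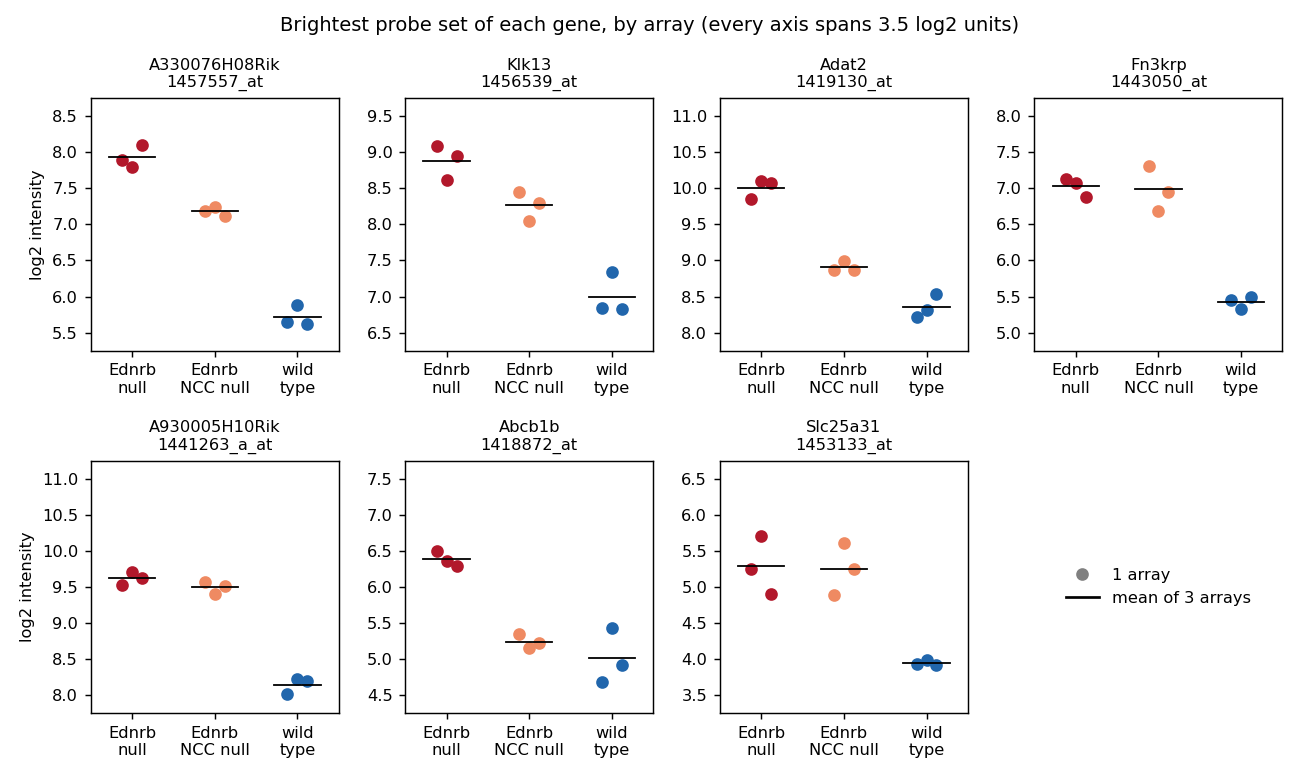
Log2 intensity (y axis) of the brightest probe set of each of the 7 genes in the hindgut arrays of the 3 groups, Ednrb null at left, then Ednrb NCC null, then wild type (x axis). Points are arrays and lines are means of 3 arrays. Every axis spans the same number of log2 units. A330076H08Rik, Klk13 and Adat2 show 3 steps, A930005H10Rik, Fn3krp and Slc25a31 show both mutants at 1 level, and in Abcb1b only Ednrb null is clear of wild type.

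In the comparison that chose the genes, 8 of the 12 probe sets were called higher in Ednrb null and 0 lower, where 2.51% of all probe sets were called higher. All 3 Ednrb null arrays lay above all 3 wild type arrays for 10 of the 12, against 12.7% of all probe sets. Both counts follow from the choice of the genes. By brightest probe set, A330076H08Rik ranked 1, Klk13 5, Adat2 7, Fn3krp 8, A930005H10Rik 9, Abcb1b 12 and Slc25a31 13 in this difference. Hbb-bh1, Itga9, 4930518C04Rik and Otor were called with larger differences than Slc25a31 and are not among the 7. Just above Slc25a31, Otor differed by 1.45, and Xist by 1.44 with overlapping arrays (limma adjusted p = 0.7). Just below it came Gm26760 at 1.34, Slc2a12 at 1.34 and Bnc1 at 1.33.

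The second question was whether Ednrb NCC null embryos, whose tissue kept Ednrb transcript, shared the rise. Of the 7 genes, 6 were called higher against wild type and Abcb1b was not. The wild type arrays are the same as in the comparison that chose the genes, so this is not independent of that choice. The largest difference was that of Fn3krp, 1.56 (SE 0.14, limma adjusted p = 0.00024). A330076H08Rik followed at 1.47 (SE 0.11, adjusted p = 5e-05), then A930005H10Rik at 1.35 (adjusted p = 3.4e-05), Slc25a31 at 1.30 (SE 0.20, adjusted p = 0.00603) and Klk13 at 1.26 (SE 0.17, adjusted p = 0.00214). Adat2 differed by 0.56 (SE 0.11, adjusted p = 0.0177), a 1.47-fold difference. Its call was lost when any 1 of 4 arrays was left out, with adjusted p = 0.0741 without Ednrb NCC null 5, 0.0556 without Ednrb NCC null 6, 0.0789 without wild type 1B and 0.0541 without wild type 1C. Abcb1b differed by 0.23, with a 95% interval of -0.13 to 0.58 and adjusted p = 0.547. This value rested on single wild type arrays, since it was 0.06 without wild type 1B (adjusted p = 0.917) and 0.43 without wild type 1C (adjusted p = 0.0851).

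Over all 12 probe sets, 7 were called higher in Ednrb NCC null and 0 lower, beside 2.06% of all probe sets called higher. The same number, 7, had all Ednrb NCC null arrays above all wild type arrays, beside 11.6% of all probe sets. By size of this difference among 18193 genes, Fn3krp ranked 18, A330076H08Rik 25, A930005H10Rik 33, Slc25a31 35, Klk13 40, Adat2 471 and Abcb1b 2701.

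The direct comparison of the mutants split the 7 genes. Adat2 was 1.10 higher in Ednrb null than in Ednrb NCC null (SE 0.11, limma adjusted p = 0.00034), Abcb1b 1.14 higher (SE 0.16, adjusted p = 0.0033) and A330076H08Rik 0.75 higher (SE 0.11, adjusted p = 0.00346). These 3 were the called probe sets among the 12, beside 1.84% of all probe sets called higher, and the Ednrb null arrays behind them had served to choose the genes. Klk13 was 0.62 higher without overlap, at adjusted p = 0.0636, and was called at 0.05 under 5 alternatives, such as leaving out Ednrb null 37 (adjusted p = 0.0481) or wild type 1C (adjusted p = 0.0307).

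For the other 3 genes the mutants did not differ beyond their spread. The difference was 0.05 for Fn3krp (95% interval -0.27 to 0.36, adjusted p = 0.918), 0.04 for Slc25a31 (-0.41 to 0.49, adjusted p = 0.955) and 0.12 for A930005H10Rik (-0.08 to 0.32, adjusted p = 0.562). The interval was widest for Slc25a31 and narrowest for A930005H10Rik.

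One of the measures of RNA integrity moved with the Ednrb null group. The log2 ratio of the 3' to the 5' Actb control probe sets was 0.87 ± 0.06 in Ednrb null, 1.21 ± 0.18 in Ednrb NCC null, against 1.18 ± 0.13 in wild type (SD, n = 3 each). That of the Gapdh control probe sets was 0.12 ± 0.03 in Ednrb null, 0.23 ± 0.10 in Ednrb NCC null, against 0.19 ± 0.07 in wild type, and its groups overlapped. With the Actb ratio in the model, the difference of Slc25a31 between Ednrb null and wild type was 0.80 in place of 1.34. Between the mutants, A330076H08Rik then differed by 0.69 (limma adjusted p = 0.149) and Abcb1b by 0.99 (adjusted p = 0.164), so both calls ended. Their differences had been 0.75 and 1.14, and their SE rose from 0.11 to 0.18 and from 0.16 to 0.27. The call of Adat2 remained (adjusted p = 0.049). The Actb ratio was at most 0.90 in Ednrb null and at least 1.03 in the other groups, so this model separates ratio and group poorly. The part of RNA integrity in these differences was not tested further.

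Agreement among probe sets could be read for A330076H08Rik, A930005H10Rik and Abcb1b, since the other 4 genes have 1 probe set each. In A930005H10Rik the 2 brightest probe sets moved together. The second, 1441264_x_at, read 9.03, 9.25 and 9.09 in Ednrb null, beside 9.09, 8.95 and 9.05 in Ednrb NCC null, against 8.12, 7.93 and 7.95 in wild type, and differed from wild type by 1.12 in Ednrb null and by 1.03 in Ednrb NCC null (limma adjusted p = 0.00022 for the second). The suffix _x_at marks probes that can match other sequences, and _a_at a set shared by transcripts of the gene. The remaining probe sets of A930005H10Rik differed less. For 1460135_at the difference was 0.24 (SE 0.10) in Ednrb null, beside 0.14 (95% interval -0.07 to 0.35) in Ednrb NCC null. For 1457709_a_at it was 0.15 (95% interval -0.12 to 0.42) in Ednrb null, beside 0.18 (-0.09 to 0.45) in Ednrb NCC null. At wild type means of 7.79 and 7.39, these 2 sets were not at the low end of the array.

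In Abcb1b and A330076H08Rik the second probe sets were dim and differed less. The second Abcb1b probe set differed from wild type by 0.11 (95% interval -0.10 to 0.32) in Ednrb null and by -0.01 (-0.22 to 0.20) in Ednrb NCC null, at a wild type mean of 4.08. The second A330076H08Rik probe set had the direction of the first, with 0.57 in Ednrb null, beside 0.37 (-0.05 to 0.79) in Ednrb NCC null, at a wild type mean of 3.80. In all, 1 of the 5 probe sets that were not the brightest of their gene was called in either comparison with wild type. Among the brightest probe sets, those of Adat2 and Abcb1b carry a RefSeq mRNA accession in the platform annotation.

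**Figure D2:**
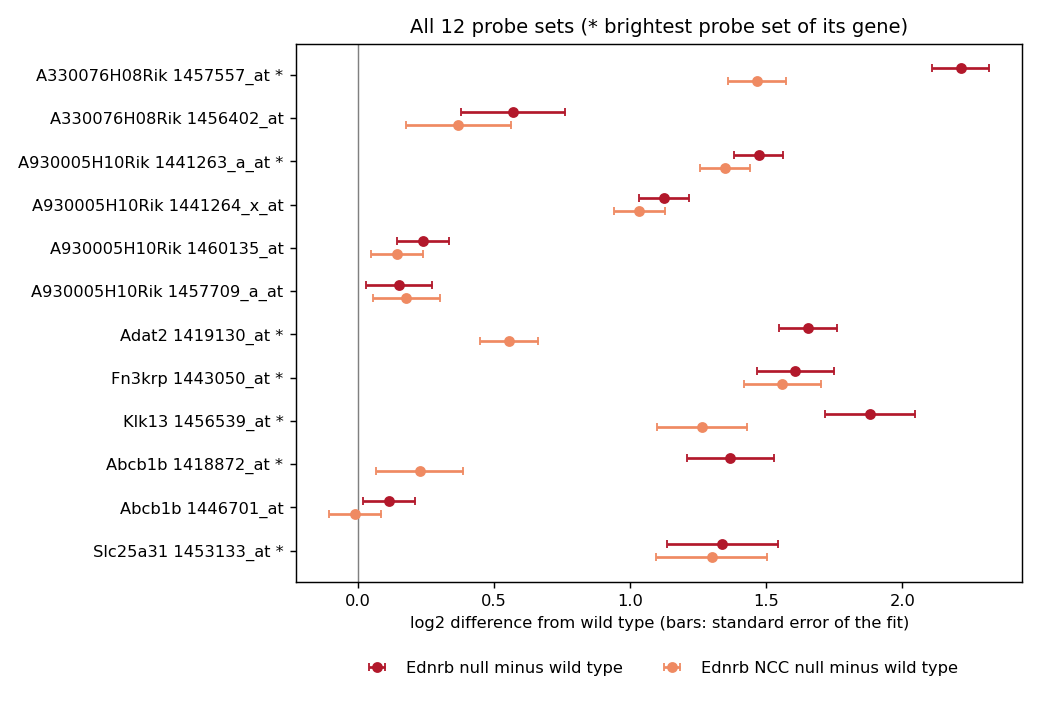
Log2 difference from wild type (x axis) of all 12 probe sets (y axis), for Ednrb null and Ednrb NCC null, 3 arrays per group. Points are differences of means, bars are standard errors of the fit, and a star marks the brightest probe set of its gene. In A930005H10Rik the 2 brightest probe sets lie between 1.03 and 1.47 and the other 2 between 0.14 and 0.24.

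The measured genes beside each of the 7 on its chromosome were read next, 5 on either side and 70 in all, in the gene order of the RefSeq table of GRCm38.p6. Against wild type, 3 were called higher and 2 lower in Ednrb null, beside 4.79% of all genes called in either direction. In Ednrb NCC null 4 were called higher and 1 lower, beside 3.90% of all genes.

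Of the 10 neighbours of A330076H08Rik, which include the imprinted genes Snrpn, Ndn, Magel2, Mkrn3 and Peg12, 0 were called by limma in either mutant. At an unadjusted p under 0.05 the count was 0 in Ednrb null against 1 in Ednrb NCC null, and the differences in Ednrb null lay between -0.09 and 0.21. The nearest, A230057D06Rik at 16.3 kb, differed by 0.17 in Ednrb null and by 0.14 in Ednrb NCC null. Ndn, the nearest on the other side, differed by 0.03 and 0.15. Dph5, which makes diphthamide and adjoins A930005H10Rik, differed by 0.22 in Ednrb null and by 0.30 in Ednrb NCC null. Pex3, a peroxisome biogenesis factor that adjoins Adat2, differed by 0.18 and 0.16. On the other side of A930005H10Rik, S1pr1 differed by 0.055 in Ednrb null and by -0.27 in Ednrb NCC null, where all arrays lay below wild type. On the other side of Adat2, Aig1 differed by 0.19 and by 0.38, with all Ednrb NCC null arrays above wild type. Neither S1pr1 nor Aig1 was called.

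Near A930005H10Rik, Extl2, a glycosyltransferase of the exostosin family, had a brightest probe set called higher in both mutants, with 0.55 in Ednrb null (limma adjusted p = 0.0027) and 0.70 in Ednrb NCC null (adjusted p = 0.0011). Its other probe set ran the opposite way in Ednrb null, at -0.52 (adjusted p = 0.004). Col11a1, a fibrillar collagen gene, differed by 0.44 in Ednrb null (adjusted p = 0.0419), a call that held under 8 of 18 alternatives. In Ednrb NCC null it differed by -0.31 (adjusted p = 0.156), with all arrays below wild type, and the mutants differed by 0.75 (adjusted p = 0.00371).

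The 2 genes that flank Fn3krp did not rise with it. Fn3k, the paralog 3.67 kb away, differed by 0.09 in Ednrb null and by -0.30 in Ednrb NCC null, neither called. Rab40b, a small GTPase gene 33.1 kb away on the other side, fell by 1.16 in Ednrb null (limma adjusted p = 0.0023) and by 1.02 in Ednrb NCC null (adjusted p = 0.0086). It read 6.20, 6.41 and 6.15 in Ednrb null, beside 6.62, 6.57 and 6.01 in Ednrb NCC null, against 7.68, 7.22 and 7.34 in wild type. All mutant arrays lay below all wild type arrays. A dimmer Rab40b probe set differed by -0.03 and -0.16.

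Around Abcb1b, Abcb1a differed by 0.25 in Ednrb null and by 0.37 in Ednrb NCC null and Abcb4 by 0.18 and 0.10, none of them called. Tmem243, the third gene on the Abcb4 side, fell by 0.56 in Ednrb null (limma adjusted p = 0.0046). Beside Slc25a31, Intu differed by 0.23 and 0.09 and Hspa4l by -0.36 and 0.20, none called. With the Actb ratio in the model, the calls of Rab40b and Tmem243 in Ednrb null were lost (adjusted p = 0.154 and 0.077), and that of Extl2 was kept.

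**Figure D3:**
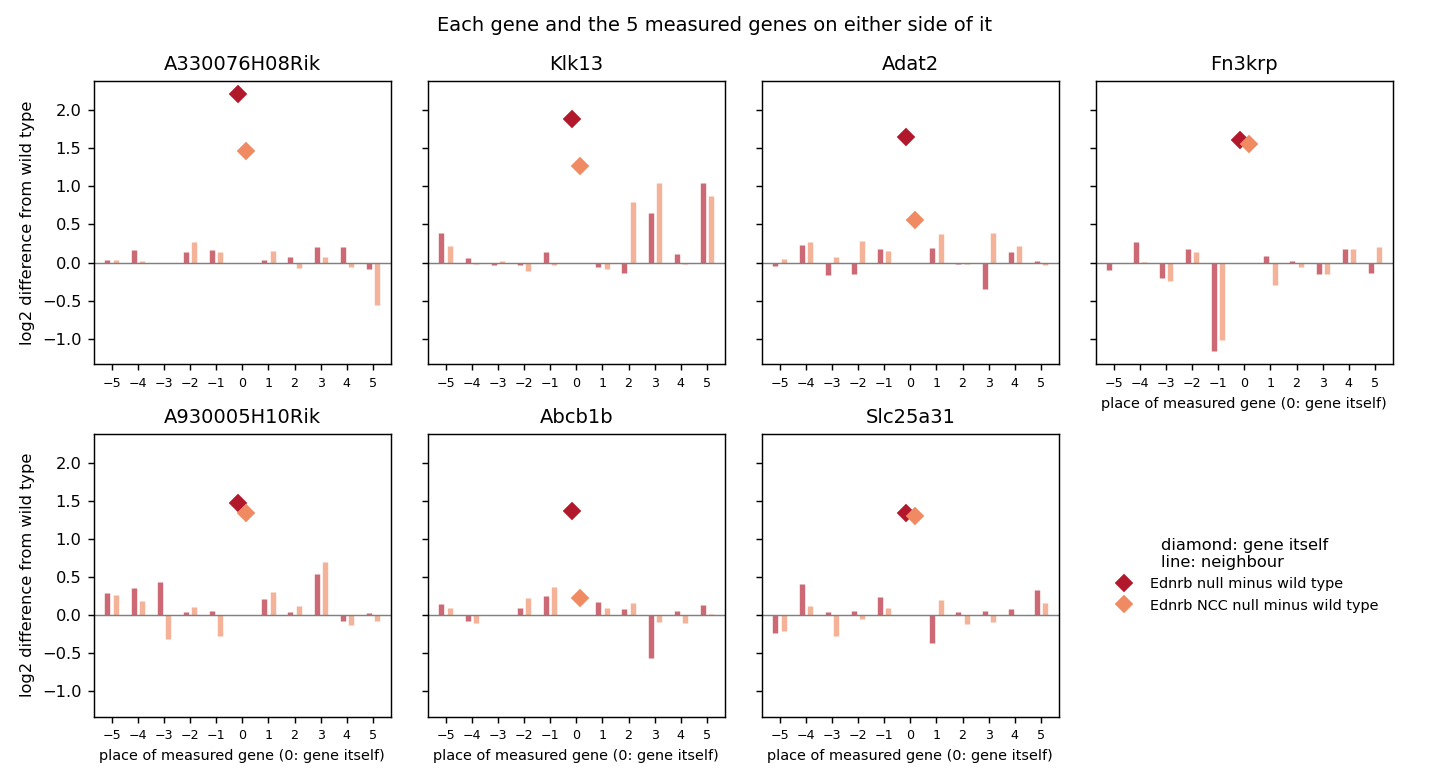
Log2 difference from wild type (y axis) of each of the 7 genes (diamonds) and of the 5 measured genes on either side (vertical lines), by place along the chromosome (x axis), for Ednrb null and Ednrb NCC null, means of 3 arrays each. The neighbours farthest from 0 are Rab40b beside Fn3krp and Klk8 and Klk10 beside Klk13.

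Among the measured neighbours of Klk13, the other kallikrein genes lay along 1 side of it. Kallikreins without a probe set of their own, such as Klk14, could not be read. Klk12, the nearest measured kallikrein, differed by -0.06 in Ednrb null and by -0.09 in Ednrb NCC null. Ctu1, the nearest measured gene on the other side, differed by 0.14 and -0.04. Klk8, a kallikrein also known as neuropsin, read 10.59, 10.59 and 10.50 in Ednrb null, beside 10.30, 10.36 and 10.48 in Ednrb NCC null, against 9.06, 9.76 and 9.71 in wild type. All mutant arrays lay above all wild type arrays, with differences of 1.05 (limma adjusted p = 0.0028) and 0.87 (adjusted p = 0.0137).

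Klk10 and Klk11 were called in Ednrb NCC null alone. Klk10 differed by 0.65 in Ednrb null (adjusted p = 0.103) and 1.04 in Ednrb NCC null (adjusted p = 0.0175), and the mutants did not pass the test against each other (-0.39, adjusted p = 0.36). Klk11 read 5.50, 5.84 and 5.54 in Ednrb null, beside 6.19, 6.81 and 6.66 in Ednrb NCC null, against 5.84, 5.58 and 5.87 in wild type. Its difference was -0.14 in Ednrb null, beside 0.79 in Ednrb NCC null (adjusted p = 0.0213), and the mutants differed by -0.93 (adjusted p = 0.0083), where Klk13 differed by 0.62.

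The kallikrein calls in Ednrb NCC null rested on few arrays. In Ednrb NCC null, leaving out Ednrb NCC null 5 or 6 ended those of Klk8 (adjusted p = 0.0526 and 0.0628), Klk10 (0.0776 and 0.0648) and Klk11 (0.084 and 0.0901), and leaving out wild type 1B or 1C ended those of Klk10 (0.0784 and 0.0505) and Klk11 (0.066 and 0.0681). The Klk11 call was also lost with only the 2 groups fitted (adjusted p = 0.0515). Klk8 in Ednrb null was not called with the Actb ratio in the model (0.73, adjusted p = 0.22). Of the 18 kallikreins measured, 1 was called higher in Ednrb null against 3 in Ednrb NCC null, with 0 lower. The called shares were 5.56% and 16.7%, beside 4.79% and 3.90% of all genes. The median difference was 0.06 and 0.03, against 0.04 and 0.02 over all genes. Markers of skin and squamous epithelium, where several kallikreins are abundant, summed to 3230 to 5830 in Ednrb null, 3880 to 5480 in Ednrb NCC null, against 3190 to 9660 in wild type (linear intensity), and their part in these values was not tested.

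The partners and relatives of the other enzymes and carriers were read from lists. At an unadjusted p under 0.05 stood 18.5% of all genes in Ednrb null, beside 18.8% in Ednrb NCC null. Of 25 other genes of transfer RNA modification, 1 was called higher and 0 lower in Ednrb null. In Ednrb NCC null limma called 0 of the 25, with 7 at an unadjusted p under 0.05. The called share was 4% in Ednrb null, near the 4.79% of all genes. Adat3, the partner subunit of Adat2, differed by 0.08 in Ednrb null and by 0.04 in Ednrb NCC null. Adat1, which acts on transfer RNA for alanine, differed by 0.17 and -0.09. The called gene was Elp4, a subunit of the Elongator complex, at 0.52 in Ednrb null (limma adjusted p = 0.00957) and 0.19 in Ednrb NCC null.

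Of 7 genes of protein deglycation and glyoxalase activity, 1 was called in Ednrb null, and limma called 0 in Ednrb NCC null, with 3 at an unadjusted p under 0.05. Glo1, which with glutathione removes methylglyoxal, read 12.31, 12.41 and 12.35 in Ednrb null, beside 11.37, 11.48 and 11.55 in Ednrb NCC null, against 11.44, 11.78 and 11.87 in wild type. It differed by 0.66 in Ednrb null (limma adjusted p = 0.00603) and by -0.23 in Ednrb NCC null (adjusted p = 0.353), and the mutants differed by 0.89 (adjusted p = 0.0019), where Fn3krp differed by 0.05. With the Actb ratio in the model Glo1 was not called in Ednrb null (0.44, adjusted p = 0.358), nor was Elp4 (0.59, adjusted p = 0.136).

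Of 18 ABC exporters and their regulators, limma called 0 against wild type in either mutant, with 1 in Ednrb null against 3 in Ednrb NCC null at an unadjusted p under 0.05. Between the mutants 2 of the 18, Abcc4 and Abcc10, were called higher in Ednrb null and 0 lower, beside 283 of 18193 genes called higher. With the Actb ratio in the model both calls were lost (limma adjusted p = 0.27 and 0.532). Of 19 ADP/ATP carriers and other mitochondrial exchangers limma called 0 against wild type in either mutant, with 3 in each at an unadjusted p under 0.05. Differences in Ednrb null lay between -0.31 and 0.29 for the exporters and between -0.09 and 0.27 for the carriers. Slc25a4 and Slc25a5, the ADP/ATP carriers of somatic tissues, did not pass the test. Slc25a4 read 13.36, 13.39 and 13.30 in Ednrb null, beside 13.29, 13.26 and 13.33 in Ednrb NCC null, against 13.19, 13.33 and 13.34 in wild type. All groups overlapped. Slc25a4 differed by 0.06 in Ednrb null and by 0.00 in Ednrb NCC null, and Slc25a5 by -0.01 and 0.21. Over the 5 lists together, 87 of 96 genes were measured, and 3 were called higher and 0 lower in each mutant. That is 3.45%, near the 4.79% of all genes called in Ednrb null, beside 3.90% in Ednrb NCC null.

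**Figure D4:**
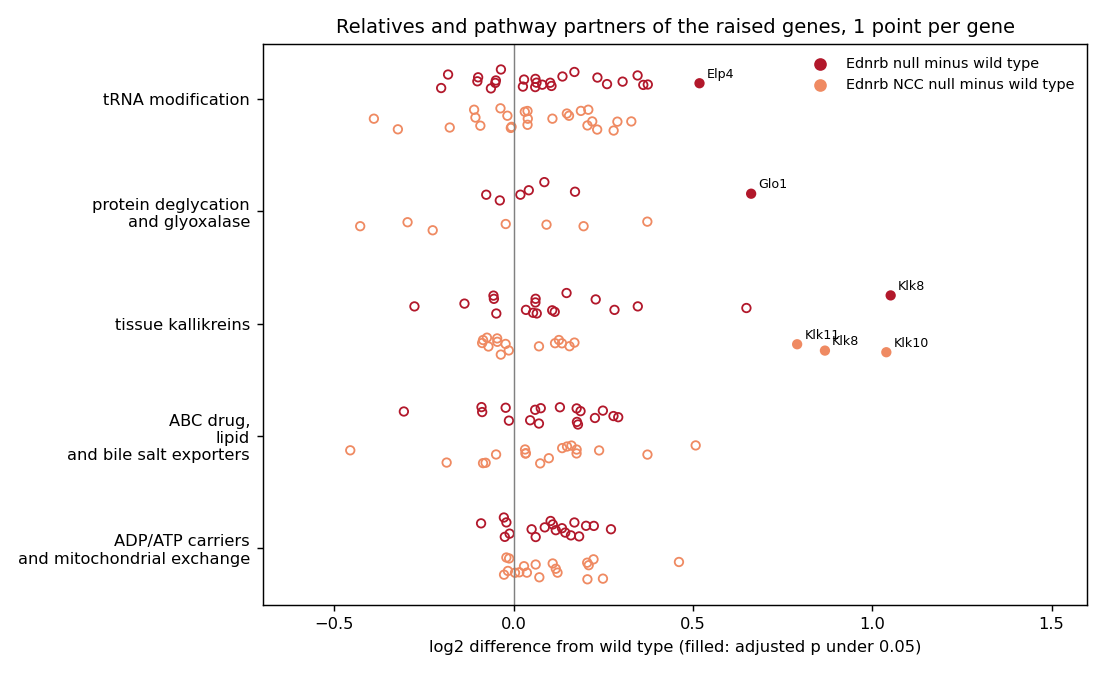
Log2 difference from wild type (x axis) of the measured relatives and pathway partners of the raised genes, 1 point per gene and mutant, in 5 lists (y axis), means of 3 arrays each. Filled points, which are named, have a limma adjusted p under 0.05. Klk8 is filled in both mutants, Elp4 and Glo1 in Ednrb null, and Klk10 and Klk11 in Ednrb NCC null.

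By Pearson r over the 9 arrays, used as a measure of likeness, A330076H08Rik and Klk13 were among the 3 genes most like each other, with r = 0.978. The arrays share 3 genotypes, and r is given as a description. C920006O11Rik (0.981) and Prrg1 (0.977) were the others for A330076H08Rik, and Flrt3 (0.979) and Fv1 (0.978) for Klk13. Fn3krp was most like Lias (0.986), Ndc1 (0.982) and Rmdn3 (0.980), and A930005H10Rik was most like G0s2 (0.989), Rmdn3 (0.988) and Dera (0.985), so Rmdn3 was common to both. The differences of Rmdn3 were only 0.24 in Ednrb null, beside 0.24 in Ednrb NCC null. Adat2 was most like Lgals8 (0.982), 4833438C02Rik (0.979) and Cep112 (0.975), Abcb1b most like Mb21d2 (0.985), Ccdc57 (0.981) and Pold2 (0.978), and Slc25a31 most like Tusc3 (0.986), Snrpb2 (0.976) and Cdc26 (0.961).

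Marker sums of other cell types also differed between the genotypes. The summed linear intensity of 5 enteric neural crest markers was 331 to 514 in Ednrb null, 392 to 495 in Ednrb NCC null, against 1260 to 2640 in wild type. That of 6 mesothelial markers was 2780 to 3290 in Ednrb null, 3200 to 3670 in Ednrb NCC null, against 583 to 2530 in wild type. The 583 was that of wild type 1B, which stood apart, while wild type 1C and 1D summed to 2530 and 1930. Of the mesothelial markers, limma called 0 of the 6 in Ednrb null (4 at an unadjusted p under 0.05) and 1 in Ednrb NCC null (6 at an unadjusted p under 0.05). Of all genes, 4.79% and 3.90% were called, and 18.5% and 18.8% stood at an unadjusted p under 0.05. The summed intensity of 6 red blood cell markers was 26500 to 28800 in Ednrb null. It was 20900 to 23000 in Ednrb NCC null, against 17700 to 24500 in wild type. Against wild type, limma called 2 of the 6 higher in Ednrb null, Hbb-bh1 (2.15) and Hba-x (0.79), and 1 in Ednrb NCC null. Hbb-y, the brightest of them, was not called in Ednrb null (0.23, adjusted p = 0.359). Neither were Alas2 (0.03), Slc4a1 (0.15) and Hba-a1 (0.10). The summed intensity of 11 hindgut epithelial markers was 27900 to 36600 in Ednrb null, 41500 to 48100 in Ednrb NCC null, against 34300 to 35600 in wild type. Between the mutants limma called 6 of these 11 lower in Ednrb null and 0 higher, such as Cdx1 (-1.81, adjusted p = 0.00106) and Vil1 (-1.21, adjusted p = 0.00912). Of all 18193 genes, 679 were called lower and 283 higher in this comparison, so calls between the mutants leaned down in general. The sums of mesenchymal, macrophage, skeletal muscle and adrenal markers were lower in every Ednrb null array than in every Ednrb NCC null array. The mesenchymal sums nearly met, at 59100 and 59700. Single markers of these lists did not all follow the sums. Of 11 mesenchymal markers, limma called 2 up and 1 down between the mutants, with a median difference of 0.22. The calls were 2 of 7 macrophage, 1 of 6 skeletal muscle and 1 of 6 adrenal markers, all down. Their median differences were -0.48, -0.53 and -0.0021. The part of these markers in the values of the 7 genes was not tested.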

How the data were processed

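Hindgut RNA was measured on 9 Affymetrix MOE430 version 2 arrays, from biotin-labelled cRNA made from 150 ng of total RNA. Per the submitters' processing notes the deposited intensities, 1 per probe set and array, are RMA values. This method removes background, equalises array distributions and combines probes, which shrinks differences of dim probe sets. Its version and chip definition file are not given here. The deposited values were on a linear scale, from 5.69 to 61637, and were taken to log2 here without a pseudocount, filter or further normalization. With 3 arrays per group, the number of arrays limits the precision.

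After removal of 64 controls, 45037 probe sets entered one limma 3.58.1 fit in R 4.3.3 (lmFit, eBayes, group means, 9 arrays), with 2-sided tests and Benjamini-Hochberg adjustment over all probe sets. A gene was represented by the brightest probe set naming it alone. Gene order and promoters came from RefSeq GRCm38.p6. The 7 genes, gene lists, naming rule and tests were chosen with earlier results of these data known. All probe sets of the 7 genes are named, with the closest relatives, the nearest measured neighbours and the 3 most similar genes of each. List members and neighbours called against wild type are named as well. On simulated data of 45037 probe sets with independent normal noise, 67 were changed 2-fold, and 89.6% of these changes were recovered in each comparison. The arrays had many more calls, so such shares may not carry over to them. Smaller changes were found less well: at 1.5-fold the share was 55.2% with Ednrb null set beside wild type, 59.7% with Ednrb NCC null in its place, and 47.8% between the mutants.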

Additional observations from a re-analysis of the deposited data

How the results depend on the processing

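The differences of the 12 probe sets were recomputed under 9 other settings and with each array left out. Against wild type, no probe set that was called changed direction under any of these. With the Actb ratio as a covariate, Ednrb null minus wild type was 1.95 for Fn3krp, 1.49 for Adat2, 1.23 for A930005H10Rik 1441264_x_at and 0.80 for Slc25a31, and of the 12 probe sets 1 was called higher between the mutants in place of 3. That setting also turned Ednrb null minus Ednrb NCC null to -0.0919 for A330076H08Rik 1456402_at and -0.5580 for Slc25a31. Centring arrays on their medians turned Ednrb NCC null minus wild type of Abcb1b 1446701_at to 0.0040. These 3 differences were called in neither setting. The probe set counts called were 917 with 1 probe set per gene and 539 with the Actb ratio for Ednrb null minus wild type (2265 in the fit reported). For Ednrb NCC null minus wild type they were 1042 with only the 2 groups fitted, 902 with 1 probe set per gene and 2871 at an adjusted p under 0.10 (1611). Between the mutants they were 3709 with array weights, 1187 with 1 probe set per gene, 3164 at an adjusted p under 0.10 and 283 with the Actb ratio (1984). Leaving out 1 array at a time gave counts of 1330 (without Ednrb null 29) to 2358 (without wild type 1C) for Ednrb null minus wild type, 716 (without Ednrb NCC null 6) to 1971 (without wild type 1D) for Ednrb NCC null minus wild type and 866 (without Ednrb null 29) to 2061 (without wild type 1D) between the mutants. The same omissions gave differences between the mutants of -0.1356 to 0.0334 for A930005H10Rik 1457709_a_at, -0.0991 to 0.2104 for Fn3krp and -0.1710 to 0.2329 for Slc25a31, and Ednrb NCC null minus wild type of -0.0188 to 0.0038 for Abcb1b 1446701_at. The cause of these changes was not tested, except that 1 probe set per gene tests fewer features and an adjusted p under 0.10 is a looser threshold. Leaving out the dimmest 40% removed Slc25a31, both Abcb1b probe sets and A330076H08Rik 1456402_at, which then had no value. No paired analysis was possible because the labels give the groups no shared replicate numbers.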
